A study of Mus musculus with 6 samples.

Results

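Neutrophils carry antimicrobial proteins in granules, and 9 genes for such proteins were followed here in cells sorted from the fetal mouse liver: Mpo, Elane, Prtn3, Ngp, Camp, Ltf, Lcn2, S100a8 and S100a9. They were taken by name from the deposited table, after its Ensembl gene identifiers had been matched to symbols, and all 9 were found among its 52550 genes. All 9 were also among the 22452 genes that were tested, those whose mean reached 1 TPM (a transcript level scaled by gene length and to the same total in every library), and the lowest E16.5 mean of a member was 1.12 TPM. Total RNA was sequenced from embryos of CD-1 mice of the genotype Sox9-GFP, as 3 libraries per stage, E16.5 and E18.5, lettered A, B and C. The labels give these stages as embryonic days 16 and 18. Each library came from a pool of 15 livers, so the spread between libraries is not the spread between embryos, and no source says whether the pools were dissociated on separate days. In both stages blood cells bearing Ter119, CD45R, CD5, CD11b, Ly-6G/C or the 7/4 antigen were first removed with magnetic beads, and GFP-positive cells were then sorted. GFP reports expression of SOX9, a transcription factor of bile duct cells, and no group without the reporter or without the sort was sequenced here. The question asked of these genes was how their level in the sorted cells differed between E16.5 and E18.5.

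The fetal liver is a blood-forming organ, and granulocytes mature there between the epithelial cells. Granules are filled in order as a neutrophil matures: primary (azurophilic) granules form in promyelocytes and hold myeloperoxidase and serine proteases, specific (secondary) granules form later in myelocytes and hold lactoferrin, cathelicidin and neutrophilic granule protein, and the cytosolic calprotectin pair S100A8 and S100A9 accumulates as the cells mature. C/EBP proteins and the ETS factor PU.1 are known regulators of granule genes. Lipocalin 2 is stored in specific granules too, but it is also made by hepatocytes and other epithelia in the acute-phase response.

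The stretches of promoter that hold letters of these regulators are shown here because the results are ordered by granule class. RefSeq promoters (GRCm38.p6, 250 bases before to 50 bases after the annotated start) were found for all 9 members and searched on both strands for a C/EBP core written TTNCNNAA, a PU.1 (ETS) core written GAGGAA and a TATA box written TATAAA. Each stretch runs from the first to the last match with up to 30 bases on either side, 5′ to 3′ on the gene's own strand, and capitals mark the matches. On the opposite strand GAGGAA reads TTCCTC.
S100a8: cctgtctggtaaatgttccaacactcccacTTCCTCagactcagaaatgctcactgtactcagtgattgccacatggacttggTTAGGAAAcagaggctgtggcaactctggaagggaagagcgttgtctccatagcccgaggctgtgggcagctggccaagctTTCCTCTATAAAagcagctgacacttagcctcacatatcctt
S100a9: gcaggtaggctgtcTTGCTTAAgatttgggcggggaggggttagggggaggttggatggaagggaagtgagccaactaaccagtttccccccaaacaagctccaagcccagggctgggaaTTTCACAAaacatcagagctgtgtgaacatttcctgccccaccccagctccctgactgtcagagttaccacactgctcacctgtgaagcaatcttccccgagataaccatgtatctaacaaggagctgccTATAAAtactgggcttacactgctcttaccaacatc
Ngp: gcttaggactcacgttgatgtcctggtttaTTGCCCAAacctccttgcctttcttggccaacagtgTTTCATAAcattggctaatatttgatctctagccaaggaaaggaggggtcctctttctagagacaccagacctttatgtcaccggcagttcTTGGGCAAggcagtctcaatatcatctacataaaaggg
Ltf: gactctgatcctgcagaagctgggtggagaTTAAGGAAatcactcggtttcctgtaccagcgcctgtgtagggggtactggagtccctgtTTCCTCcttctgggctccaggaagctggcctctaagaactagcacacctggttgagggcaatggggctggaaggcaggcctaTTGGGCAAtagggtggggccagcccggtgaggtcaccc
Lcn2: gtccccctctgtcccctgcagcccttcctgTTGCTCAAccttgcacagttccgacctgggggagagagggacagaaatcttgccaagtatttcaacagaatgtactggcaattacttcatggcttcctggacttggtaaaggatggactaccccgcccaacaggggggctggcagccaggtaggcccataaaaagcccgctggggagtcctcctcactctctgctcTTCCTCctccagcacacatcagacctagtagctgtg
Mpo: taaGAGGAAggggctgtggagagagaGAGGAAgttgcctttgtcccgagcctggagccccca
Elane: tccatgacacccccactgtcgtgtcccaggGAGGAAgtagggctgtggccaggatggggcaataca
Prtn3: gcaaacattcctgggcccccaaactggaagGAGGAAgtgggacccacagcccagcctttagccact

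These stretches lie at chr3:90668871-90669076 (plus strand) for S100a8, chr3:90695686-90695971 (minus) for S100a9, chr9:110419640-110419834 (plus) for Ngp, chr9:111019045-111019254 (plus) for Ltf and chr2:32387724-32387985 (minus) for Lcn2. Those of the primary granule genes lie at chr11:87793534-87793595 for Mpo, chr10:79886197-79886262 for Elane and chr10:79879542-79879607 for Prtn3, all on the plus strand. The stretches of Prtn3 and Lcn2 lie wholly inside the longer gene models that GENCODE gives. Those of S100a8, S100a9, Ngp, Mpo and Elane run past the GENCODE start, and that of Ltf lies before it. The C/EBP letters were present in 5 of 9 members, S100a8, S100a9, Ngp, Ltf and Lcn2, and in 0 of the 3 primary granule genes, against 40.7% of 32851 promoters. The PU.1 letters were present in 6 of 9 members, among them all 3 primary granule genes, S100a8, Ltf and Lcn2, against 28.3% of promoters. The TATA box letters were present in S100a8 and S100a9 only, against 13.6% of promoters. In S100a9 they began at the annotated start itself and not before it. In S100a8 the PU.1 letters from -36 to -31 adjoin the TATA box from -30 to -25, counted with the start at 0, and no 2 matches overlap in any member. Camp held none of the 3 sets of letters in this window, so no stretch of it is shown. A match is a description of letters and not a measured binding site, and a promoter of this length often holds them.

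The libraries held between 13093937 and 26206374 reads, recovered from the TPM as whole reads per gene, and every E18.5 library was shallower than every E16.5 library. The members rested on 4 reads (Camp, E16.5 replicate B) to 799 reads (Mpo, E18.5 replicate B), and 0 of 54 member values were at or under the level of 3 reads, which was 0.101 to 1.41 TPM depending on gene and library. Confidence intervals for single libraries (95%, Clopper-Pearson) cover counting error only. The labels call the cells cholangiocytes, the epithelial cells of bile ducts. Of 6 cholangiocyte markers 6 were higher at E18.5, against 26.0% of all genes tested. Among them was Sox9 itself, on which the sort was based, at 138 ± 60.7 TPM and 411 ± 56.4 TPM (SD, n = 3). The marker count was 3 of 6 after median-of-ratios scaling, an alternative scaling between libraries, against 6.44% of all genes. It was 1 of 6 without replicate A of E18.5 and 2 of 6 without replicate B of E18.5. Calls over all genes were also fewer there. They were 1472 of 22410 without replicate A (70.5% of the calls higher) and 2917 of 22200 without replicate B (72.0% higher). The E16.5 libraries also held much hepatoblast RNA, with 155000 to 195400 TPM over 6 genes, and megakaryocyte RNA, with 3143 to 9180 TPM over 7 genes. TPM are shares of each library, and the median log2 fold change of all genes tested was 0.42, so most genes stood somewhat higher at E18.5 on this scale.

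**Figure D1:**
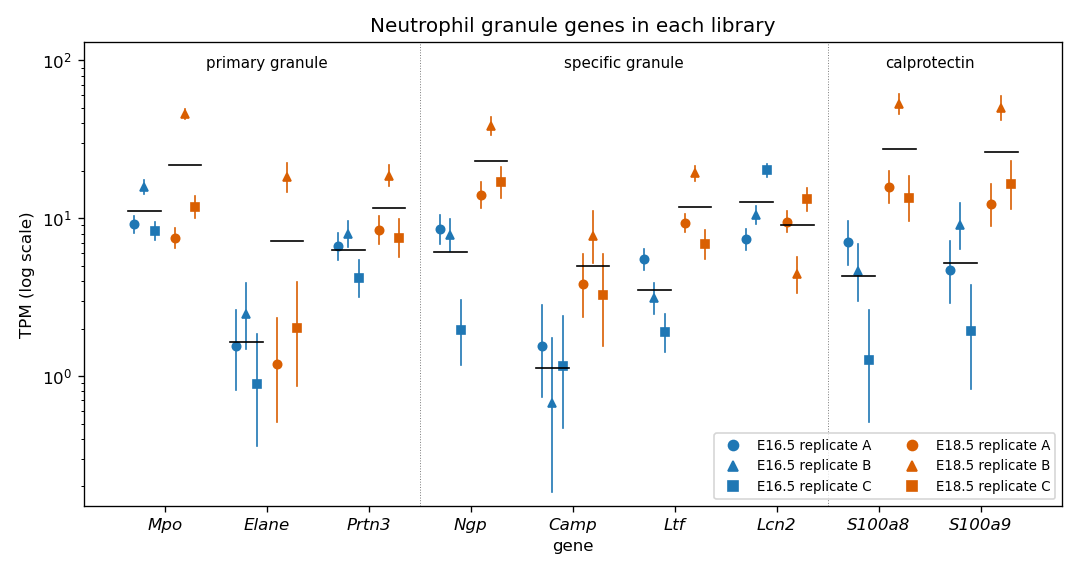
TPM of the 9 neutrophil granule genes (log axis) in each of the 6 libraries, with the 95% counting interval as a vertical line and the mean of the 3 libraries of a stage as a black bar. Replicate B of E18.5 is the highest library for 8 of 9 genes, with Lcn2 as the exception, and the stages do not overlap for S100a8, S100a9, Ngp, Camp and Ltf.

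Both calprotectin transcripts and 3 of the 4 specific granule members were higher at E18.5, and the primary granule members and Lcn2 were not shown to differ. With limma on log2(TPM + 1) and Benjamini-Hochberg adjustment over all 22452 genes, 5 of 9 members had an adjusted p under 0.05 and were higher at E18.5: S100a8, S100a9, Ngp, Camp and Ltf. Their mean TPM was 3.38-fold to 6.38-fold that at E16.5. Among all genes tested 26.0% were called higher at E18.5 and 5.22% lower, and 0 of 9 members were called lower. For the same 5 members every E18.5 library was above every E16.5 library, which held for 45.0% of all genes tested. The median log2 fold change of the 9 members was 1.43, against 0.42 for all genes. In sorted bulk cells, a change in the number of cells that hold these transcripts and a change in transcript per cell cannot be told apart. Which of the sorted cells held them was not tested. The 5 calls did not hold under another scaling of the libraries: after median-of-ratios scaling, which brought the median of all genes to 0.01, 0 of 9 members and 6.44% of all genes were called higher, although the log2 fold changes of the 5 stayed between 1.08 and 1.95. Of the 9 members, 3 were called without E16.5 replicate A, 1 without E16.5 replicate B, 3 without E18.5 replicate C, and 0 without E16.5 replicate C, E18.5 replicate A or E18.5 replicate B. Fewer of all genes were called there too, against 7000 of 22452 with all libraries. The counts in either direction were 4376 of 22528 without E16.5 replicate A, 4783 of 22653 without B and 4082 of 22683 without C. They were 1472 of 22410 without E18.5 replicate A and 2917 of 22200 without E18.5 replicate B. List counts given below with a library left out stand beside these.

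S100a8 (ENSMUSG00000056054.9, chr3:90668978-90670035, plus strand, GRCm38) encodes the smaller chain of calprotectin, which binds zinc and manganese and withholds them from microbes. It measured 7.06, 4.62 and 1.26 TPM in the E16.5 libraries (A, B, C) and 15.8, 53.3 and 13.5 TPM in the E18.5 libraries. Replicate B of E18.5 stood far above its stage mates, and even the lowest E18.5 library was above the highest E16.5 library. The means were 4.31 ± 2.91 TPM and 27.5 ± 22.3 TPM (SD, n = 3). The log2 fold change was 2.34 (SE 0.63, 95% interval 0.86 to 3.82), with an adjusted p of 0.0320 in limma, the largest fold change of the 9 members. Without replicate B of E18.5 the mean was still 3.39-fold that at E16.5. The lowest library, E16.5 replicate C, held 7 reads of S100a8, with a 95% counting interval of 0.508 to 2.61 TPM, while E18.5 replicate B held 189 reads, with an interval of 46.0 to 61.4 TPM.

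S100a9 (ENSMUSG00000056071.12, chr3:90692632-90695721, minus strand) encodes the partner chain, and its gene lies 22596 bases from S100a8. It measured 4.69, 9.09 and 1.92 TPM at E16.5, while at E18.5 it measured 12.3, 49.9 and 16.51 TPM, again with replicate C lowest at E16.5, replicate B highest at E18.5 and no overlap. The means were 5.23 ± 3.61 TPM and 26.2 ± 20.6 TPM (SD, n = 3), and the log2 fold change was 2.05 (SE 0.61, 95% interval 0.62 to 3.48, limma adjusted p = 0.0414). In every library both chains were present at a similar level. The ratio of S100a8 to S100a9 was 1.504, 0.508 and 0.658 at E16.5 and 1.28, 1.07 and 0.817 at E18.5, so it lay between these values with no separation of the stages. S100a8 moved from percentile 48.9 of 21819 protein-coding genes by mean TPM at E16.5 to percentile 72.6 at E18.5, the highest of the members at that stage.

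Of the 4 specific granule members, 3 were called higher. Ngp (ENSMUSG00000032484.8, chr9:110419747-110423012, plus strand) encodes neutrophilic granule protein, a member of the cystatin family. It measured 8.49, 7.87 and 1.95 TPM at E16.5, and its E18.5 values were 14.1, 38.4 and 16.9 TPM. The stages did not overlap, and the lowest value was in replicate C of E16.5. The means were 6.10 ± 3.61 TPM and 23.2 ± 13.3 TPM (SD, n = 3), with a log2 fold change of 1.81 (SE 0.54, 95% interval 0.54 to 3.08, limma adjusted p = 0.0424).

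Ltf (ENSMUSG00000032496.7, chr9:111019271-111042767, plus strand) encodes lactoferrin, the iron-binding protein of specific granules. It measured 5.48, 3.12 and 1.89 TPM at E16.5, and at E18.5 it was 9.32, 19.3 and 6.85 TPM, with the same highest and lowest library as S100a8 and no overlap. The means were 3.50 ± 1.82 TPM and 11.8 ± 6.58 TPM (SD, n = 3), and the log2 fold change was 1.47 (SE 0.43, 95% interval 0.45 to 2.49, limma adjusted p = 0.0404). Camp (ENSMUSG00000038357.10, chr9:109847379-109849617, minus strand) encodes the cathelicidin antimicrobial peptide and had the lowest mean of the members at both stages, although without E18.5 replicate B Elane was lower, at 1.60 TPM against 3.55 TPM. It measured 1.54, 0.677 and 1.16 TPM at E16.5, while at E18.5 it measured 3.86, 7.74 and 3.25 TPM, and each of these values rested on 4 to 30 reads. The means were 1.12 ± 0.432 TPM and 4.95 ± 2.44 TPM (SD, n = 3). Its log2 fold change of 1.43 (SE 0.35, 95% interval 0.60 to 2.26) had the lowest adjusted p of the members, 0.0255 in limma.

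Lcn2 (ENSMUSG00000026822.14, chr2:32384633-32388252, minus strand), which encodes the siderophore-binding lipocalin 2, departed from the other 8 members. It measured 7.38, 10.5 and 20.1 TPM at E16.5, and its E18.5 values were 9.53, 4.40 and 13.1 TPM. Its highest library was E16.5 replicate C, the lowest library of its stage for 7 of 9 members, and its lowest library was E18.5 replicate B, the highest of its stage for the other 8. The stages overlapped, and the log2 fold change was -0.45 (SE 0.45, 95% interval -1.51 to 0.61, limma adjusted p = 0.457). Across the 6 libraries, 3 of each stage, the Pearson correlation of log2(TPM + 1) of Lcn2 with each of the other 8 members lay between -0.88 and -0.62, whereas correlations among the other 8 lay between 0.56 and 0.99. The points of all genes come from the same 6 libraries, which differ in stage and depth, so the values are descriptions.

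The 3 primary granule members did not pass the test, and their stages overlapped. Mpo (ENSMUSG00000009350.13, chr11:87793581-87804413, plus strand) encodes myeloperoxidase, which makes hypochlorous acid from hydrogen peroxide. It measured 9.16, 15.8 and 8.31 TPM at E16.5, and at E18.5 it was 7.51, 45.7 and 11.8 TPM. A single library, replicate B of E18.5, lay above the E16.5 range, and replicate A of E18.5 was the lowest of all 6. The log2 fold change was 0.56 (SE 0.60, 95% interval -0.87 to 1.99, limma adjusted p = 0.490), and without that library it was -0.16. An antisense gene, Gm11505, shares 14.95% of the exon sequence of Mpo and was listed at 0 in every library.

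Elane (ENSMUSG00000020125.7, chr10:79886247-79888215, plus strand) encodes neutrophil elastase, a serine protease. It measured 1.54, 2.48 and 0.892 TPM at E16.5, while at E18.5 it measured 1.19, 18.3 and 2.002 TPM. Replicate B of E18.5 was 11.5-fold the mean of its stage mates, the widest such gap among the members, while the other E18.5 libraries lay within the E16.5 range. The log2 fold change was 0.97 (SE 0.79, 95% interval -0.89 to 2.84, limma adjusted p = 0.357), and without replicate B of E18.5 the mean TPM at E18.5 was 0.975-fold that at E16.5. Prtn3 (ENSMUSG00000057729.12, chr10:79874476-79883174, plus strand) encodes proteinase 3, a related protease whose gene lies 3072 bases from Elane. It measured 6.67, 7.99 and 4.198 TPM at E16.5, and its E18.5 values were 8.44, 18.6 and 7.54 TPM, so that only replicate C of E18.5 fell inside the E16.5 range. The log2 fold change was 0.71 (SE 0.37, 95% interval -0.16 to 1.58, limma adjusted p = 0.167). The end of the Prtn3 model shares 9.18% of its exon sequence with Plppr3 on the other strand. The ratio of Elane to Prtn3 was 0.212 to 0.310 at E16.5, 0.141 and 0.266 in replicates A and C of E18.5, and 0.981 in replicate B of E18.5.

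**Figure D2:**
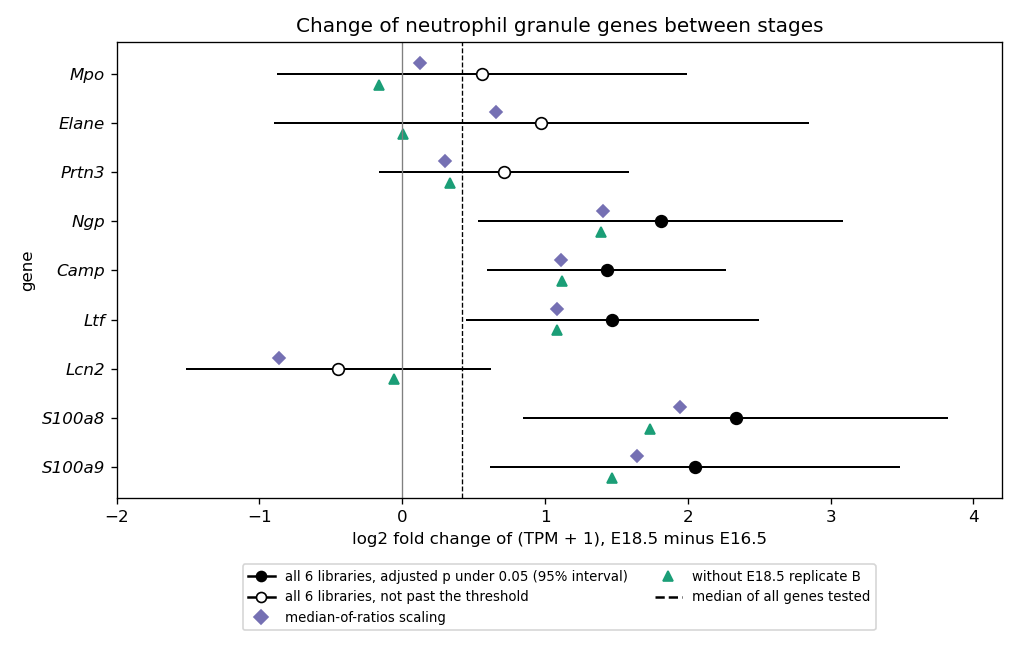
Log2 fold change of (TPM + 1), E18.5 minus E16.5, for each gene, as a circle with its 95% interval over all 6 libraries (filled where the adjusted p was under 0.05), a diamond after median-of-ratios scaling and a triangle without E18.5 replicate B. The intervals of the 3 primary granule genes and of Lcn2 cross 0, and the 5 filled circles lie to the right of the dashed median of all genes at 0.42 under each of the 3 settings drawn.

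Exact two-sided permutation tests of the mean TPM gave p = 0.1 for each of the 5 members whose stages did not overlap, the smallest value that 3 libraries against 3 allow. The same exact tests gave p = 0.7 for Mpo, 0.6 for Elane, 0.2 for Prtn3 and 0.5 for Lcn2. The upper ends of the 95% intervals of Mpo, Elane and Prtn3, at 1.99, 2.84 and 1.58, lie above the log2 fold changes of Camp and Ltf, so a difference of that size in the primary granule genes could not be told from none with these libraries.

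A ratio between 2 members of the same library does not depend on how the libraries are scaled, and the members were therefore also set against Mpo. S100a8 was 0.152-fold to 0.770-fold Mpo at E16.5 and 1.14-fold to 2.102-fold at E18.5. S100a9 was 0.231-fold to 0.575-fold Mpo at E16.5 and 1.09-fold to 1.64-fold at E18.5. The calprotectin transcripts were thus below Mpo in every E16.5 library and above it in every E18.5 library. Camp also had no overlap, at 0.0428-fold to 0.168-fold and 0.170-fold to 0.513-fold Mpo, although the nearest values of the stages were almost equal. These were 3 of the 8 genes set against Mpo, while 1.16% of all 22451 tested genes other than Mpo had every E18.5 ratio above every E16.5 ratio. Mpo itself was highest in replicate B of E18.5, where the ratio of a gene that did not share this was low. Of the 9 members 8 were highest in that library, so 1.16% is not a like background for the 3 of 8. The other 5 members overlapped. Ngp was 0.234-fold to 0.927-fold Mpo at E16.5 and 0.842-fold to 1.88-fold at E18.5, and Ltf was 0.198-fold to 0.598-fold and 0.422-fold to 1.24-fold. Elane and Prtn3 stayed below Mpo in every library except for Prtn3 in replicate A of E18.5, at 1.12-fold. Whether the granule classes differ in their change between stages was not tested.

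**Figure D3:**
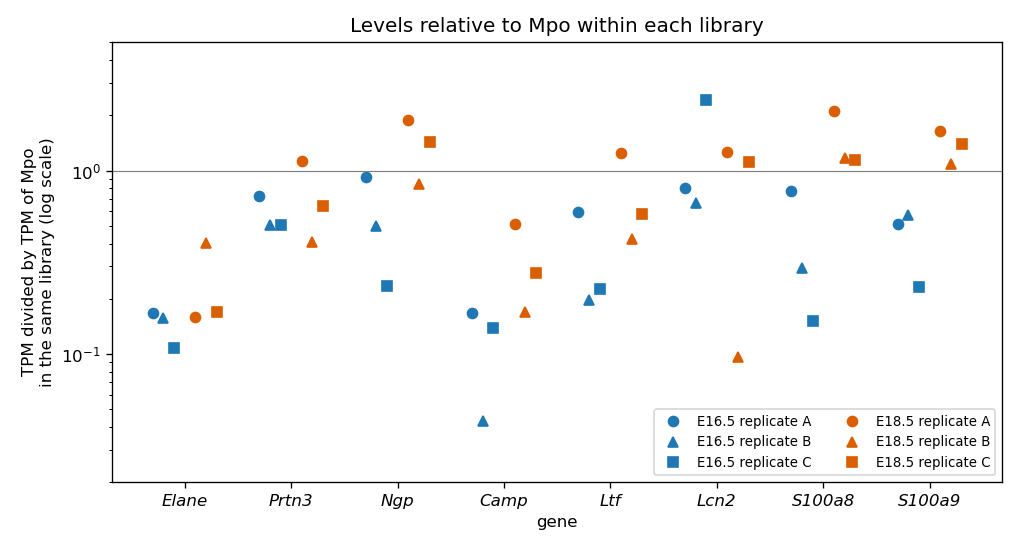
TPM of each gene divided by the TPM of Mpo in the same library (log axis), with the grey line at equal levels, for the 3 libraries of each stage. S100a8 and S100a9 lie under the line in all E16.5 libraries and above it in all E18.5 libraries, and Lcn2 in replicate B of E18.5 is the lowest of its row at 0.0964.

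Replicate B of E18.5 had the highest summed level of granule transcripts. The 9 members summed to 52.0, 62.2 and 41.7 TPM at E16.5 and to 82.1, 255.6 and 91.5 TPM at E18.5, which is 0.00417% to 0.0256% of all transcripts. Replicate B was the highest E18.5 library for 8 of 9 members, against 54.2% of all genes tested. It was also the highest E18.5 library for 5 of 5 pan-leukocyte genes, 8 of 9 tested monocyte and macrophage genes, 9 of 10 erythroid genes and 7 of 7 megakaryocyte genes. Among the granulocyte lists described below it was highest for 6 of 10 tested other specific and gelatinase granule genes and 1 of 2 other primary granule genes. The counts were 3 of 5 for surface receptors, 3 of 6 for transcription factors and 6 of 6 for the NADPH oxidase. For cholangiocyte genes the count was 4 of 6, and for stem and progenitor genes 1 of 2. The monocyte and macrophage list summed to 44.7 to 55.5 TPM at E16.5 and to 54.8, 103 and 67.1 TPM at E18.5, and the erythroid list to 275 to 331 TPM and to 118, 617 and 155 TPM. In the same library 0 of 9 tested acute-phase genes and 0 of 6 hepatoblast genes were highest. At the lower end, E16.5 replicate C was the lowest E16.5 library for 7 of 9 members, against 56.5% of all genes tested. That library also had the lowest cholangiocyte sum, 660 TPM against 1795 and 2311 TPM, and the highest megakaryocyte sum, 9180 TPM. In these lists, 1 of the 11 other specific and gelatinase granule genes was at 0 in every library, and no other gene was. The part of these cells in the values of the granule genes was not tested.

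**Figure D4:**
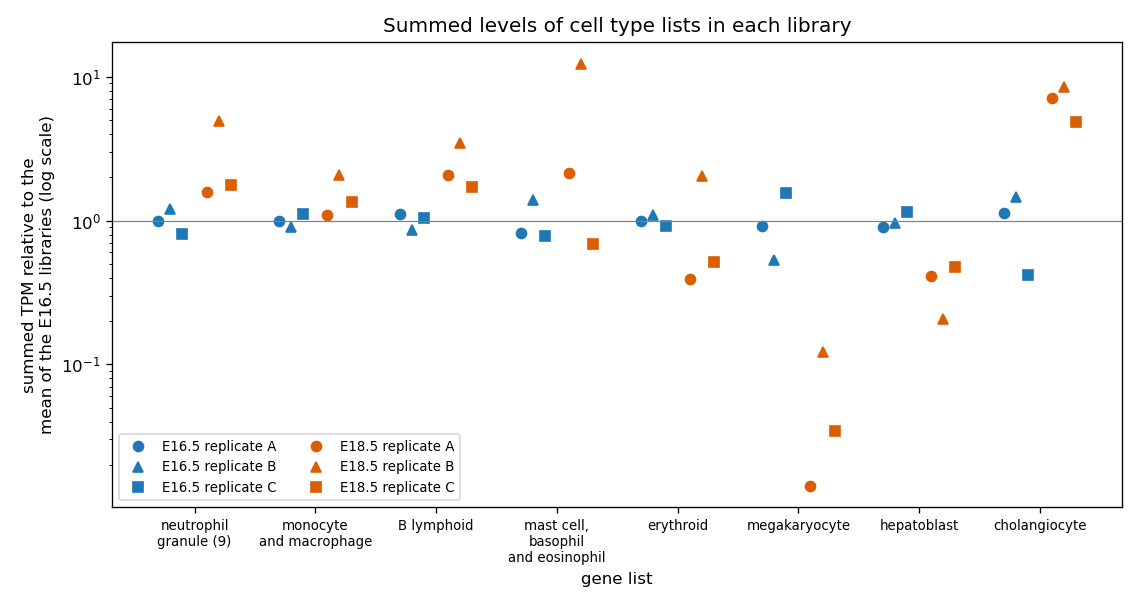
Summed TPM of the 9 neutrophil granule genes and of marker lists of other cell types in each library, divided by the mean of the E16.5 libraries (log axis). The granule genes in replicate B of E18.5 stand at 4.92 on this scale, and the same library is the highest E18.5 library for every list drawn except hepatoblast.

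Other genes of the granulocyte programme mostly did not pass the test. Of all genes tested, 26.0% were called higher at E18.5 and 5.22% lower. Of 5 other primary granule genes 2 reached the mean of 1 TPM, and neither was called. The higher of them, Ctsc, encodes dipeptidyl peptidase 1, which activates the granule proteases, and measured 3.86 ± 1.28 TPM and 7.03 ± 1.41 TPM (SD, n = 3, limma adjusted p = 0.0718). Of 11 other specific and gelatinase granule genes 10 were tested, with 1 higher, 0 lower and a median log2 fold change of 1.015. The gene that rose was Itgb2l, an integrin beta chain of neutrophils, from 11.01 ± 3.55 TPM to 29.0 ± 4.28 TPM (SD, n = 3, log2 fold change 1.36, limma adjusted p = 0.0140). Its call held in all 13 alternatives that gave a value. The most abundant gene of that list, Lyz2, encodes lysozyme of macrophages and granulocytes and measured 61.1 ± 22.8 TPM at E16.5, and at E18.5 it was 23.3 ± 18.2 TPM, opposite in direction to the called members (log2 fold change -1.53, limma adjusted p = 0.0552).

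The NADPH oxidase is the complex that supplies the superoxide from which the substrate of myeloperoxidase forms. Its 6 subunits gave 0 higher and 2 lower, against 26.0% and 5.22% of all genes. Rac2 fell by 1.55 on the log2 scale and was called in 7 of 13 alternatives, and Ncf1 fell by 1.32 and was called in 8 of 14. Neither was called without E16.5 replicate A, E16.5 replicate C, E18.5 replicate A or E18.5 replicate C. Their median log2 fold change was 0.11, and it changed sign to -0.26 after median-of-ratios scaling. Cyba, the most abundant subunit and one that many cell types express, measured 105 ± 3.996 TPM and 115.5 ± 18.2 TPM (SD, n = 3).

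Of the transcription factors that drive granule genes, the most abundant was one that hepatocytes share. Cebpa, which acts in granulocyte progenitors and in hepatocytes alike, measured 71.9, 74.8 and 75.6 TPM at E16.5, while at E18.5 it measured 89.7, 64.6 and 100.3 TPM. Cebpe, which is needed for specific granule formation, measured 0.283, 1.66 and 1.32 TPM at E16.5, and its E18.5 values were 0.118, 1.90 and 0.199 TPM, under the mean needed for a test. Gfi1 lay between 0.157 and 0.982 TPM and Spi1, the gene of PU.1, between 0.606 and 1.67 TPM over the 6 libraries. Of the 8 factors 6 were tested and 1 was called, as lower, against 5.22% of all genes. This was Runx1, from 17.1 ± 8.47 TPM to 3.07 ± 1.37 TPM (SD, n = 3, log2 fold change -2.11, limma adjusted p = 0.0144). Runx1 is also expressed in megakaryocytes. The median of the 6 was 0.17 and turned to -0.16 after median-of-ratios scaling.

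The 9 granulocyte surface receptors summed to 56.4 to 141 TPM at E16.5 and to 12.6 to 30.2 TPM at E18.5, and most of the E16.5 sum was Itgb2. Csf3r, the receptor of the granulocyte growth factor G-CSF, lay between 0.521 and 1.16 TPM, and Cxcr2, a chemokine receptor of mature neutrophils, between 0.210 and 0.899 TPM. Cxcr4, a chemokine receptor of many blood cells, was higher than these, at 10.5 ± 3.61 TPM and 6.04 ± 2.13 TPM (SD, n = 3), and was not called (limma adjusted p = 0.144). Of the 9 receptors 5 were tested, and Itgb2 alone was called, as lower, against 5.22% of all genes. It went from 87.9 ± 40.6 TPM to 6.79 ± 6.39 TPM (SD, n = 3, log2 fold change -3.69, limma adjusted p = 0.0108). Itgb2 encodes the beta-2 integrin chain that leukocytes in general carry. The genes behind the depletion antibodies were low in both stages, with a sum of 1.82 to 4.38 TPM at E16.5, and at E18.5 it was 3.43 to 5.86 TPM over 6 genes, and 0 of the 2 tested were called. Ly6g measured 0.371, 2.72 and 0 TPM at E16.5, while at E18.5 it measured 0.621, 1.25 and 1.57 TPM, and Ptprc, the gene of CD45, lay between 0.539 and 2.13 TPM. Itgam, the gene of CD11b, lay between 0.0249 and 0.698 TPM, but 68.7% of its exon sequence is shared with Gm49368 on the same strand, so its level is uncertain. Each of the 9 members had a higher mean than each of these antigen genes at both stages.

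Transcripts of proteins that bind granule products were present in the sorted cells. Of 6 tested, 2 were called higher and 0 lower at E18.5, against 26.0% and 5.22% of all genes. Ager, the receptor RAGE that binds S100A8 and S100A9, rose from 12.9 ± 6.26 TPM to 93.8 ± 13.1 TPM (SD, n = 3, log2 fold change 2.87, limma adjusted p = 0.00815), and its call held in all 14 alternatives. Its values were 13.5, 18.9 and 6.38 TPM at E16.5, and at E18.5 they were 107, 94.4 and 80.4 TPM, with the highest value in replicate A of E18.5. Cd36, a scavenger receptor, rose from 4.57 ± 1.92 TPM to 11.6 ± 3.11 TPM (SD, n = 3, log2 fold change 1.202, limma adjusted p = 0.0295), but its call held in 5 of 14 alternatives. The remaining 4 of the 6 receptors did not pass, among them Lrp1, which takes up lactoferrin and protease complexes, at 189 ± 14.6 TPM and 153 ± 23.3 TPM (SD, n = 3).

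Inhibitors of granule proteases were mostly lower at E18.5. Of 10 tested, 6 were lower and 1 was higher at E18.5, against 5.22% and 26.0% of all genes, with a median log2 fold change of -1.24. Slpi, which blocks elastase and cathepsin G, fell from 37.3 ± 17.6 TPM to 4.47 ± 2.61 TPM (SD, n = 3, log2 fold change -2.85, limma adjusted p = 0.0130). Serpina1e, Serpina1d and Serpina1b of the alpha-1-antitrypsin cluster fell by 2.48, 2.02 and 1.74 on the log2 scale. These copies are near-identical, so reads may be split among them and their separate values are uncertain. The cluster is made by hepatocytes, and 5 of 6 hepatoblast genes were lower too, with a sum of 35700 to 81950 TPM at E18.5. Without any 1 of the E16.5 libraries, or without E18.5 replicate A, 2 of these 6 were called. Serpinb6a rose, with a log2 fold change of 1.16 (limma adjusted p = 0.0187), and was not called without replicate A or without replicate B of E18.5. Without E16.5 replicate C, and likewise without E18.5 replicate A, 2 of the 10 inhibitors were called lower.

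Among other S100 genes, 9 of 12 were tested, and 4 were higher and 0 lower at E18.5, against 26.0% and 5.22% of all genes. Their median log2 fold change was 0.96, against 0.42 for all genes. S100a10 and S100a11, which many epithelia express, were at 163 ± 34.5 TPM and 173 ± 51.4 TPM at E16.5 (SD, n = 3), far above S100a8, and rose by 1.03 and 0.86 on the log2 scale. S100g rose by 1.39 and S100a16 by 0.60, the latter called in 3 of 14 alternatives. After median-of-ratios scaling 2 of the 9 were called higher, against 6.44% of all genes. Without replicate B of E18.5 2 of the 9 were called higher, and without replicate A of E18.5 2 of 8 tested were.

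The acute-phase genes of the liver, among which Lcn2 is often counted, gave 0 higher and 3 lower of 9 tested, against 26.0% and 5.22% of all genes. Their median log2 fold change was -1.15. The median was -0.43 without E18.5 replicate B and -0.31 with no filter on low values. Saa4 fell by 2.94 on the log2 scale, Saa3 by 2.38 and Hpx, the gene of haemopexin, by 1.55, and Hpx was called in 7 of 14 alternatives. Fgb, the most abundant of them, measured 1939 ± 379.5 TPM and 1090 ± 781 TPM (SD, n = 3).

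Markers of other blood cells differed in both directions. Their counts stand beside 26.0% of all genes called higher at E18.5 and 5.22% called lower. All 7 megakaryocyte genes were lower at E18.5, with a median log2 fold change of -4.39. Of 5 pan-leukocyte genes 2 were lower, Coro1a by 3.30 and Laptm5 by 2.85 on the log2 scale, and 0 were higher. The other 3 were not called, with log2 fold changes of 0.42 to 1.09, and the median of the 5 was 0.42. Of 9 tested monocyte and macrophage genes 2 were higher and 1 lower. Csf1r, the receptor of the macrophage growth factor, rose from 21.4 ± 2.14 TPM to 41.9 ± 4.83 TPM (SD, n = 3, limma adjusted p = 0.0104), although 15.1% of its exon sequence is shared with Hmgxb3 on the other strand. Its log2 fold change of 0.93 was 0.48 after median-of-ratios scaling, where 0 genes of the list were called higher, and its adjusted p ranged from 0.00773 to 0.134 over 13 alternatives. Clec4f, a marker of Kupffer cells, rose by 1.72 on the log2 scale and was called in 2 of 13 alternatives, and F13a1 fell by 2.45. Of 10 erythroid genes 2 were lower. Without replicate B of E18.5 5 were, and without E16.5 replicate A, E16.5 replicate C, E18.5 replicate A or E18.5 replicate C 1 was. Of all 49 list genes called, 0 changed sign in any alternative.

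The genes whose pattern over the 6 libraries was most like the mean log2(TPM + 1) of the 9 members were sought among 15363 genes whose mean reached 5 TPM. The 10 nearest were Jak1, Stag1, Timm22, Ythdf1, Rbm41, Mospd1, Gmfb, Pnpt1, Vapa and Gcfc2, with Pearson r between 0.992 and 0.998 over 6 libraries. None of them is a granule gene, and their range was small: the highest library was 1.40-fold to 2.23-fold the lowest. All profiles come from the same 6 libraries, which differ in stage and depth, so these values are descriptions.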

How the data were processed

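RNA from 6 libraries, 3 per stage, was read from 1 table. The authors checked reads with FastQC 0.11.7, trimmed them, aligned them to GRCm38 (HISAT2 2.1.0), obtained counts per gene of GENCODE vM15 (HTSeq 0.5.4p3) and deposited the counts converted to TPM, which sum to 1000000 per library. Whether HTSeq used the strand is not given in the sources used here. Symbols, exon lengths and coordinates came from GENCODE vM21, in which 52403 of 52550 identifiers were found with the version ignored. Multiplying TPM by exon length and expressing it in units of 1 read gave whole reads (within 0.01) for 100% of nonzero values of the 49035 genes with the same version. These reads served for depth (13093937 to 26206374 per library), counting intervals and 1 alternative test.

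The stage term was fitted in limma (3.58.1, R 4.3.3; moderated test with a mean-variance trend). Its input was log2(TPM + 1) of every gene whose mean reached 1 TPM, p-values were adjusted by Benjamini-Hochberg over all of them, and the threshold was 0.05. Fold changes on this scale understate the change of low genes. Exact permutation tests and promoter searches used Python 3.11.15 with scipy 1.17.1. The fit was tested on simulated libraries. The members and gene lists were chosen with earlier results of these data known. Named genes are the members, up to 4 called genes each way per list, the most abundant gene of each list, the transcription factors, receptors and depletion antigens, and the 10 genes most like the members. Samples were grouped by the stage in the labels. Alternatives were a pseudocount of 0.1, no filter, a minimum mean of 5 TPM, median-of-ratios and quantile scaling, eBayes without the trend, the replicate letter as a block, voom on the recovered reads, and leaving out each library. Imaging and simulations of the study are not analysed here, and a few genes are left unreported.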

Additional observations from a re-analysis of the deposited data

How the results depend on the processing

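The 5 members called higher at E18.5 (S100a8, S100a9, Ngp, Camp and Ltf) kept their direction in all alternatives, with log2 fold changes of 1.03 to 2.73, but not their calls. The number of members called was 0 with no filter, 0 with median-of-ratios scaling, 0 with quantile normalization, 2 with eBayes without the trend, and 0 to 3 when 1 library was left out. With no filter more genes were tested; for the others the cause was not tested. Leaving out 1 library moved Mpo between -0.16, a reversal without E18.5 replicate B, and 1.07. Over the alternatives the adjusted p ranged from 0.0253 to 0.0796 for S100a8, 0.0175 to 0.112 for S100a9, 0.0331 to 0.113 for Ngp, 0.0261 to 0.0831 for Camp and 0.0336 to 0.114 for Ltf. Calls over all genes numbered 7000 (83.3% higher), compared to 4282 with no filter, 3795 (38.1% higher) with median-of-ratios scaling, 3796 (50.5% higher) with quantile normalization and 1472 to 5686 when 1 library was left out. With the replicate letter as a block, 7314 genes and 4 members were called, Camp being lost at an adjusted p of 0.0512. What the letters share is not stated in any source. Deviations of same-lettered libraries had correlations of -0.04, 0.08 and 0.14, against -0.15 to 0.08 for pairs of different letters. Not every library correlated best with its own letter, and a shared batch was not tested. Of 277 list medians under alternatives, 38 moved by more than 1 SD. Values resting on few reads, those of Camp and Elane above all, are the least precise.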

Other observations

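Some lists of neighbouring blood lineages were too low for most tests. Of 7 genes of mast cells, basophils and eosinophils 2 were tested and 0 were called. Prg2, the eosinophil major basic protein, measured 0.696, 2.75 and 1.05 TPM at E16.5, and at E18.5 it was 5.58, 42.7 and 0.588 TPM, so that 1 library, replicate B of E18.5, held most of it. Among B lymphoid genes, Ebf1 was higher at E18.5 by 1.27 on the log2 scale and was called in 11 of 13 alternatives. It was not called without replicate A or without replicate B of E18.5, with a limma adjusted p of at most 0.0545, and its log2 fold change without replicate B was 1.23. Cd79b, the most abundant of that list, was at 2.98 ± 0.510 TPM and 4.57 ± 1.93 TPM (SD, n = 3). Of 4 T and NK cell genes 1 was tested, Klrb1c, which was called lower, by 1.70 on the log2 scale, against 5.22% of all genes. The other 3 were under the mean needed for a test, and each had a higher mean at E18.5. With no filter the median log2 fold change of the 4 was 0.20. Of 3 stem and progenitor genes 2 were tested and 0 were called.

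Because Lcn2 departed from the other members, the genes most like it over the 6 libraries were listed after its values had been seen. The nearest was Lbp, the hepatic lipopolysaccharide-binding protein, with a Pearson r of 0.982. Abhd5, Ddit3 and Cxcl10 were also among the 10 nearest of 15363 genes searched, with r of 0.968 or more. These are descriptions over the same 6 libraries, which differ in stage and depth. Lbp measured 133, 157 and 221 TPM at E16.5, and at E18.5 it was 132, 90.03 and 182 TPM, with the same highest and lowest library as Lcn2.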
